A study of Mus musculus with 8 samples.

Results

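Of 6411 autosomal genes with at least 100 SNP-spanning reads in each of 2 reciprocal mouse crosses, 87 were read almost only from the B6 allele, whichever parent had supplied it. They were selected on the measured reads themselves: B6 and cast reads were summed over the embryos of a cross, and the B6 share had to reach 95% in both crosses. The B6 excess of these genes is therefore a description of how they were picked and carries no test. The deposited table lists 22810 genes, and 98 of them met the limits on reads and share, of which 5 were X-linked and 6 had no chromosome in the annotations used, so that both sets were left out.

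The material was RNA of single E3.5 blastocysts from natural matings, lysed without culture and amplified with SMART-Seq2. The forward cross joined a B6 (C57BL/6) mother with a cast (Mus musculus castaneus) father and gave 3 embryos, and the reverse cross joined a cast mother with a B6 father and gave 5. All embryos are F1 hybrids without any treatment or engineered allele in the labels, so each inherits a B6 and a cast set of autosomes. Each replicate was a separate blastocyst, but litters are not given, and the trophectoderm, epiblast and primitive endoderm were pooled within it.

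In an F1 embryo a gene can lean toward an allele because of the parent that transmitted it, which is genomic imprinting, or because of the strain it came from, and a reciprocal cross separates both. Reads are assigned to an allele only where they cover a SNP, and these reads were aligned to the B6 reference sequence. Many housekeeping genes, above all those of ribosomal proteins, glycolytic enzymes, histones and tubulins, have processed pseudogenes or paralogues of nearly the same sequence elsewhere in the genome. A read from such a copy can carry bases that differ from the gene itself, and the authors excluded reads that mapped to several places.

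The coding sequences of several members could be set beside their closest relatives in GENCODE M21 transcripts (GRCm38, the same assembly as mm10). Each pair below sets a member beside a copy that shares long stretches with it. Bases that differ between the partners are in capitals. Rpl37 (chr15:5116645-5119140, plus strand) encodes a protein of the large ribosomal subunit, and Rpl37rt (chr5:115102923-115110268, minus strand) is annotated as a transcribed processed pseudogene of it. Both were members, and over the 291 coding bases of Rpl37 they differed at 1 base.
Rpl37: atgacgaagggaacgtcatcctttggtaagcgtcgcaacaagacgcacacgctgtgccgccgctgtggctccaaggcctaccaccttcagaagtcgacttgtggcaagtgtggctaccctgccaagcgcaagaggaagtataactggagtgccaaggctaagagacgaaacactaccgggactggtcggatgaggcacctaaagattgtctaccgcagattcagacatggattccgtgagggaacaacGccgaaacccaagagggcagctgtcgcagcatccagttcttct
Rpl37rt: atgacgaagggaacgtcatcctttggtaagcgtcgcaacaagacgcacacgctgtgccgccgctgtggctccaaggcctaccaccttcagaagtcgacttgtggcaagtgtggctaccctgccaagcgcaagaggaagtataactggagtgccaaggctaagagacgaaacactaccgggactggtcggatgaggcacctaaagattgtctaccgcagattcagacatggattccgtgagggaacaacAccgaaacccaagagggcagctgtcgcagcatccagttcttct

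Ftl1 (chr7:45457944-45459884, minus strand) encodes the light chain of ferritin, the iron storage protein, and its closest copy was Ftl1-ps1 (chr13:74399694-74407346, plus strand). They differed at 2 of 549 aligned bases, and both differences lie in the 150 bases from coding base 355 to 504.
Ftl1: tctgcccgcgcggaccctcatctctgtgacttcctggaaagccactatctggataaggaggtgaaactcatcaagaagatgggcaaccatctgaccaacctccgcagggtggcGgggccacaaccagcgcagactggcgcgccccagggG
Ftl1-ps1: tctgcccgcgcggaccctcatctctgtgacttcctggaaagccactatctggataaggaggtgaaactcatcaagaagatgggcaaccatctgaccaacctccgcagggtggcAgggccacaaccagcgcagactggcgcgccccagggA

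Gm9794 (chr6:66875321-66875743, minus strand), an annotated pseudogene, was a member with 98.9% of 709 reads from B6, whereas its parent gene Rpl23 (chr11:97777527-97782437, minus strand) was read to 69.9% from B6. They differed at 1 of 423 bases, which is the last base of the 150 shown.
Gm9794: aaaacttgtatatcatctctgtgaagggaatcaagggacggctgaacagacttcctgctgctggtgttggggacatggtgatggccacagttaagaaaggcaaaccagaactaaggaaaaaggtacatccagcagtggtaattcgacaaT
Rpl23: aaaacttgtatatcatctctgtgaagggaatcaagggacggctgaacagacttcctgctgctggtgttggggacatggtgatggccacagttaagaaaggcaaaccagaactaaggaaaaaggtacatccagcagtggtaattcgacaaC

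Gstp2 (chr19:4040285-4046023, minus strand) encodes a glutathione S-transferase of the pi class, as does its neighbour Gstp1 (chr19:4035407-4037985, minus strand). Gstp2 was read to 98.0% from B6 over 2018 reads and Gstp1 to 58.0% over 3674 reads. The first 150 coding bases hold 6 of their 12 differences over 630 bases.
Gstp2: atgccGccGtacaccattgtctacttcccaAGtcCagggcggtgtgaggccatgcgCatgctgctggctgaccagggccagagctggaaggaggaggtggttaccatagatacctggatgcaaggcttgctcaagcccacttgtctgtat
Gstp1: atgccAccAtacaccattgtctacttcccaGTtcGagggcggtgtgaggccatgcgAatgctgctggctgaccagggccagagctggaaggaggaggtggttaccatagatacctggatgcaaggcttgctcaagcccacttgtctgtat

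Another 2 members are microRNA loci, whose mature sequences are given from RefSeq (GRCm38.p6) with the seed, bases 2 to 8, in capitals. The seeds differ. The mature sequence of Mir703 lies at chr5:98475616-98475636 on the minus strand and that of Mir6236 at chr9:110281353-110281371 on the plus strand. The library protocol does not capture mature microRNAs, so reads at these loci come from longer transcripts. The 109 bases of the Mir703 transcript matched Eef1a1, also a member, at 98.2% identity over their whole length. Whether reads counted at Mir703 came from Eef1a1 was not tested.
mmu-miR-703: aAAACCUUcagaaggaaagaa
mmu-miR-6236: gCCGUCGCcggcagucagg

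The 87 genes held 389039 reads in all, of which 4631 came from the cast allele. In single embryos the members together were read to between 98.5% and 99.1% from B6, while all other autosomal genes were read to between 55.8% and 57.0%. The median member had 1.32% cast reads and the highest, Zfp780b, had 4.55%. No cast read was found in 5 members: Myo7a with 21828 reads, Drd3 with 557, Tuba1a with 549, Abcb4 with 382 and Gm33901 with 320. A count of 0 allows a cast share of up to 0.0137% for Myo7a and 0.938% for Gm33901, counting error only.

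**Figure D1:**
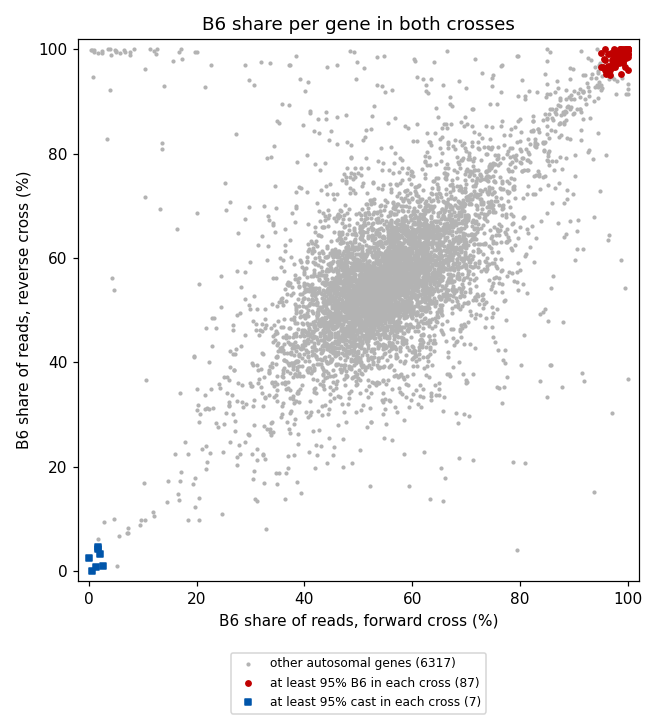
B6 share of the reads of each autosomal gene with at least 100 reads in each cross, in the forward cross (x axis, percent) against the reverse cross (y axis, percent), 1 point per gene. The 87 genes in red sit in the upper right corner by selection, and the 7 genes with at least 95% cast reads in each cross (blue squares) in the lower left.

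The opposite corner held fewer genes. With the same limits, 7 genes were read almost only from cast (Fam83a, Gm6639, H2-K2, Lims2, Nxpe4, Pyy and Syt14), which is 0.109% of the 6411 genes against 1.36% for B6. The median B6 share over the 6411 genes was 55.3%.

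In most members the share was high in every embryo. Of the 87 members, 78 had at least 10 reads in every embryo. Among embryos with at least 10 reads of a gene, the lowest B6 share was 95% or more in 52 members and under 90% in 9. The lowest was that of Gm26760, a long non-coding RNA gene. The forward embryos, numbered 1, 2 and 3, had 199, 93 and 126 B6 reads of it. The reverse embryos, numbered 1, 2, 3, 5 and 7, had 15, 147, 46, 10 and 45, an order kept below. Its cast reads were 5 in reverse embryo 3 and 6 in reverse embryo 5 and 0 elsewhere. The share in reverse embryo 5 was thus 62.5%, and that in reverse embryo 3 was 90.2%.

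By type, 70 members were protein coding (1.14% of the 6156 such genes with enough reads), 12 were long non-coding RNA genes (5.29% of 227), 3 were pseudogenes (15.8% of 19) and 2 were of another type, the microRNA loci. The largest group by name was that of ribosomal proteins. Of 56 genes with Rpl or Rps symbols and enough reads, 15 were members (26.8%), among them Rplp0, Rplp1, Rpl7, Rpl7a, Rpl14, Rpl35a, Rpl37, Rpl37rt, Rps2, Rps3a1, Rps15a, Rps18, Rps19 and Rps26. The members' B6 shares ran from 96.8% in Rpl7a to 99.9% in Rpl37rt.

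The other ribosomal protein genes ranged widely. Another 5 lay at 90% or more (Rpl34, Rpl13a, Rps20, Rpl26 and Rps28), 5 between 70% and 90%, and 30 between 40% and 70%. Rpl28 was the exception on the cast side, with 7.15% of 937 reads from B6. Rps3, with 33395 reads, was read to 51.6% from B6 and had more reads than any of the 15 members.

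Rplp0, which encodes the stalk protein of the large subunit, was the ribosomal member with the most reads. Its cast reads were 7, 7 and 21 in the forward embryos and 4, 14, 9, 15 and 4 in the reverse embryos, beside 2536, 1857 and 2780 and 1953, 3670, 5452, 2978 and 2205 B6 reads. Rps19, a protein of the small subunit, had more cast reads, 62, 51 and 56 and then 15, 38, 51, 34 and 19, beside 1330 to 2503 B6 reads. Every embryo had cast reads of both genes, and the lowest B6 share of an embryo was 99.3% in Rplp0 and 97.5% in Rps19.

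Outside the ribosome, several members encode abundant enzymes and structural proteins of every cell. Ftl1 had the most reads of all members, 7181, 4848 and 6729 B6 reads in the forward and 5676, 21781, 18390, 8798 and 6831 in the reverse embryos. Its cast reads were 69, 41 and 98 and then 15, 242, 196, 69 and 53, the largest number of any member (783 in all). The forward share was 98.9% and the reverse share 99.1% from B6. The next by cast reads were Rps19 with 326, Rpl37 with 232 and Myl6 with 193.

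Eef1a1, the elongation factor that brings aminoacyl-tRNA to the ribosome, had 99.2% of 6232 reads from B6. The glycolytic genes Eno1 and Gapdh had 98.1% of 3759 and 98.3% of 2059 reads from B6. Cox5b, a subunit of cytochrome c oxidase, had 98.7% of 10678, Myl6, a myosin light chain, 97.3% of 7093, and the proteasome subunit genes Psmb3 and Psma4 had 97.9% of 2663 and 97.6% of 1546. Hist1h2ac, a histone H2A gene, stood out among them with 1 cast read in 8721. Its B6 reads were 859, 834 and 1662 in the forward and 386, 1047, 1600, 1480 and 852 in the reverse embryos, and the cast read was in reverse embryo 2.

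**Figure D2:**
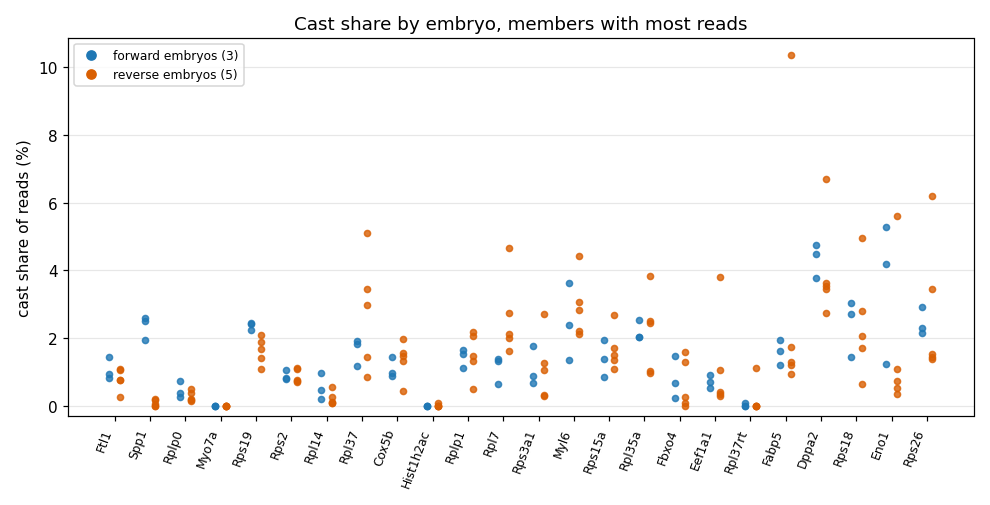
Cast share of reads (y axis, percent) in each embryo for 24 of the 25 members with the most reads (x axis, ordered by reads), forward embryos in blue and reverse embryos in orange. Myo7a lies at 0 in all 8 embryos, Hist1h2ac at 0 in 7, and the Spp1 forward embryos lie above its reverse embryos.

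Some members are known from early embryos and stem cells. Dppa2, a developmental pluripotency gene, had 95.9% of 4395 reads from B6, and cast reads were found in every embryo, 17, 14 and 21 in the forward and 42, 28, 16, 20 and 22 in the reverse embryos. Fabp5, a fatty acid-binding protein gene, had 97.9% of 4565 reads from B6. Of its 98 cast reads, 37 lay in reverse embryo 1, where its B6 share was 89.7%, the lowest of the 8 embryos. The same embryo was the lowest in other members, among them Hmgb1 (83.1%), Psma4 (86.9%), Btf3 (88.2%) and Psmb3 (89.4%). In Ftl1, Rps19 and Rpl37 it had the highest share, and the members together were read to 98.7% from B6 in it.

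Among the long non-coding RNA genes, those with the most reads were Gm39429 with 2909, Gm39087 with 1657, 4933408J17Rik with 1431 and Gm40271 with 823. Gm40271 had 1 cast read, and the others had 19, 29 and 44. Zfp780b, at 95.4% of 1098 reads, was the only zinc finger gene by symbol among 108 with enough reads. No gene of the H2 symbol group, which names the major histocompatibility genes, was a member, and 3 such genes had enough reads.

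Many of these genes have near-identical relatives in the genome. For 78 members found in GENCODE, the longest coding sequence, or the longest transcript where there is none, was compared with the transcripts of all other genes that do not overlap it, and the other 9 members were not searched. A copy was counted at 95% identity or more over at least 50% of the sequence and at least 75 bases. Of the 78 members, 46 (59.0%) had a copy, and 40 (51.3%) had one annotated as a pseudogene. Of the other 6092 genes searched, 458 (7.52%) had a copy, and of the 7 genes read almost only from cast 0 had one.

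Read depth differed between these sets, since members with a copy had a median of 3158 reads and members without one 528.5. Within the tenth of genes with the most reads, 25 of 101 genes with a copy were members (24.8%) and 3 of 532 genes without one (0.564%). The median B6 share was 65.5% over all 504 genes with a copy and 54.7% over the 5666 without. These shares are descriptions over genes, and the part of read mapping in them was not tested. Most genes with a copy were not members.

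**Figure D3:**
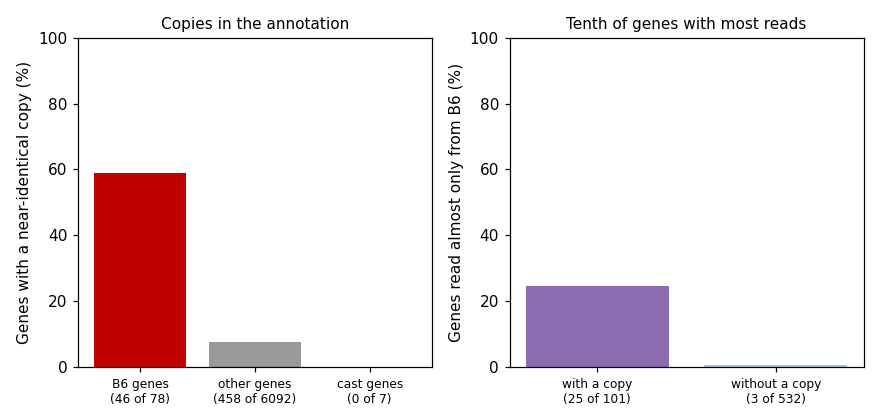
Left, percent of genes with a near-identical copy in the annotation among the genes read almost only from B6 (46 of 78), other genes (458 of 6092) and genes read almost only from cast (0 of 7). Right, percent of genes read almost only from B6 among the tenth of genes with the most reads, with a copy (25 of 101) and without (3 of 532).

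Gapdh had the most copies, 74, followed by Hmgb1 with 43, Rpl7a with 38 and Rps2 with 19. All 15 ribosomal members had at least 1 copy. Where a copy was itself measured, its share often differed from the member's. Hist1h2ac was read to 99.99% from B6 and its paralogue Hist1h2ab to 70.1% of 509 reads. Uchl4, a ubiquitin hydrolase gene, was at 98.4% and Uchl3 at 64.4% of 3446 reads. Atp6v0c-ps2, annotated as a pseudogene, was at 99.8% and Atp6v0c, a subunit of the vacuolar proton pump, at 92.4% of 1700 reads. Among the alpha-tubulin genes on chromosome 15, Tuba1a was at 100%, Tuba1c at 96.0% and Tuba1b, which missed the share limit in a single cross, at 95.4% of 285 reads, and reads of near-identical genes may be divided between them in ways the counting decides.

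Of the 78 members searched, 32 had no copy by this definition, and their median cast share was 1.22% against 1.53% in those with one. Spp1 (chr5:104435118-104441050), which encodes the secreted phosphoprotein osteopontin, and Myo7a (chr7:98051060-98119524), an unconventional myosin known from inner ear hair cells, had the most reads. Myo7a had 2541, 1575 and 1870 B6 reads in the forward and 1842, 5856, 3861, 2384 and 1899 in the reverse embryos and no cast read in any. Fbxo4, an F-box protein of ubiquitin ligases, had 99.5% of 6363 reads from B6, and Tspan12, a tetraspanin, 1 cast read in 1920.

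Others without a copy are known for restricted adult tissues. Drd3, a dopamine receptor gene, had 91, 33 and 17 B6 reads in the forward and 198, 21, 23, 92 and 82 in the reverse embryos, and Abcb4, a phospholipid transporter of bile canaliculi, had 60, 37 and 55 and then 32, 41, 102, 29 and 26. Neither had a cast read. Chrna1, a subunit of the muscle acetylcholine receptor, had 6 cast reads in 529, Proz, the coagulation protein Z, 2 in 393, and Hal, histidine ammonia-lyase, 3 in 308. All 5 rest on low counts.

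The members were spread over all 19 autosomes, from 0.408% of the genes with enough reads on chromosome 12 to 2.96% on chromosome 6. Within 250 kb of another member lay 17 of the 87, in 8 runs. In 4 of these runs the members overlap and share reads. Mir703 lies within 1700007G11Rik on chromosome 5, and both had nearly the same B6 reads in each embryo (499, 393 and 364 against 504, 394 and 365 in the forward cross). The other overlapping pairs were Gm39429 with Mir6236, Gm39087 with Nupr1 and Snrpf with 4933408J17Rik, so that the 87 rows are not all separate. Not every read of a pair is shared. In reverse embryo 1, Gm39429 had 88 B6 and 8 cast reads, and Mir6236 had 59 and 0.

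The remaining runs joined Akr1b3 with Akr1b10, 2 aldo-keto reductase genes on chromosome 6, Myl6 with Rps26 on chromosome 10, Tuba1a with Tuba1c on chromosome 15 and 4930481A15Rik with Cfl1, the actin-severing protein cofilin, on chromosome 19. On chromosome 10, Hal joined the Snrpf pair. A further 19 members overlap a measured gene that was no member, for example Rps2 with the small nucleolar RNA genes Snora64 and Snora78, and whether the counting used strand is not given in the sources used here.

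The genes around the members were also examined. Within 250 kb of a member lay 546 measured genes with at least 20 reads in each cross, and their median B6 share was 56.1%, against 56.0% over all 10469 such genes. A share of 80% or more was found in 9.89% of the neighbours and in 8.49% of all such genes. Several members had a high neighbour all the same. Pkd2, next to Spp1, had 94.9% of 156 reads from B6, Abcb1b, next to Abcb4, 90.5% of 453, and Dppa4, next to Dppa2, 80.3% of 2144.

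The level of the members, B6 and cast reads together, entered their choice only through the minimum of 100 reads in each cross. It was compared between the crosses. Of 87 members 0 were called (edgeR quasi-likelihood test, adjusted p of at most 0.1), where 0.0688% of the 13077 genes tested were called. DESeq2 also called 0, where it called 136 of the 13077 genes. These genes needed at least 10 reads in only 1 library. Members needed 100 in each cross, which leaves out genes nearly absent from a cross. Nothing is therefore read from the members' counts, shares or medians against those of all genes tested. An unadjusted p under 0.05 was found in 6 members in edgeR (6.90%, where it was found in 7.33% of all genes tested). That number depended on the setting. It was 12 in DESeq2 and 1 to 19 in edgeR without any 1 embryo, the 19 being without reverse embryo 1. The median log2 fold change of reverse over forward was -0.03 over the members and 0.08 over all genes tested, with members between -1.35 (Gm26760) and 1.15 (Spp1) and a median standard error of 0.41. A p that misses the threshold does not show equal levels. In bulk embryos, fewer cells of a type and less RNA per cell cannot be told apart.

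Spp1 had the highest of these fold changes. Its level in CPM, the B6 and cast reads of a gene scaled to the size of the library, was 2105, 1453 and 1212 in the forward embryos. The reverse embryos had 1101, 1862, 7424, 3548 and 3736 CPM. The means were 1590 ± 462 (SD, n = 3) and 3534 ± 2444 (SD, n = 5). The groups overlap, since reverse embryo 1 lay below all forward embryos. The log2 fold change of 1.15 with a standard error of 0.54 did not pass (adjusted p = 0.676, edgeR). Ftl1 averaged 4793 ± 696 CPM (SD, n = 3) in forward and 9256 ± 5211 CPM (SD, n = 5) in reverse embryos, a log2 fold change of 0.95 with a standard error of 0.49 that also did not pass (edgeR, adjusted p = 0.704). Without reverse embryo 1, Ftl1 and Spp1 were called in this comparison (log2 fold changes 1.15 and 1.37, both adjusted p = 0.0993, edgeR), the only setting in which any member was. In that setting 159 of the 12526 genes tested were called, against 9 of 13077 with all embryos.

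Reverse embryo 1 was the lowest of the reverse embryos in 54 of the 87 members (62.1%), and in 41.7% of the 6411 genes. The members held 2.44% of its reads, and 3.24% to 4.69% of those of the others. The trophectoderm list, summed, was also lowest in it, at 1584 CPM, where the other embryos had 4973 to 6583, and so was the epiblast list, at 646 against 705 to 1117. The primitive endoderm list, at 278, was the highest of the reverse embryos (173 to 234 in the others) and below the forward embryos (309 to 332). The part of this embryo's cell composition in the members' levels was not tested.

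Rpl37 and Rpl37rt had similar patterns. Rpl37 had 1395, 1362 and 1202 CPM in the forward and 907, 683, 864, 856 and 713 CPM in the reverse embryos, and Rpl37rt had 681, 768 and 601 and then 503, 330, 508, 480 and 344. In both genes every forward embryo lay above every reverse embryo. The log2 fold change was -0.71 ± 0.29 (SE) for Rpl37 and -0.66 ± 0.30 (SE) for Rpl37rt, and neither passed (edgeR, adjusted p = 0.599 and 0.672). Such a gap was found in 8 members, among the others Rpl14, Rps15a, Cfl1, Gm9794 and Gm33431, where 4.29% of the 6411 genes had it. The reverse gap, every forward embryo below every reverse one, was found in 0 members, where 1.87% of the genes had it.

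As a group, 14 of the 15 ribosomal members had a negative fold change, with a median of -0.31, and so had 29 of the other 41 ribosomal protein genes, with a median of -0.26. None of the 15 passed the test. Summed, the 15 members had 13855 ± 657 CPM (SD, n = 3) in forward and 11646 ± 2782 CPM (SD, n = 5) in reverse embryos, with reverse embryo 3 above every forward embryo.

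**Figure D4:**
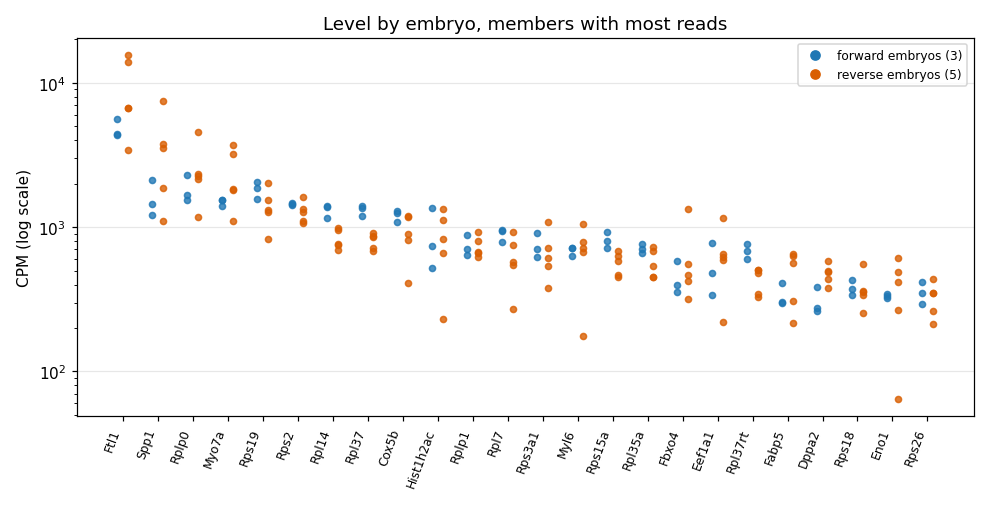
CPM (y axis, log scale) of 24 of the 25 members with the most reads (x axis, ordered by reads) in each embryo, forward in blue and reverse in orange. The forward and reverse embryos do not overlap in Rpl14, Rpl37, Rps15a and Rpl37rt, and Fbxo4 has a single high embryo, reverse 1.

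Parent of origin was compared next, with strain and parent as terms over the 16 allele libraries. The contrast draws on the B6 reads, which are maternal in the forward and paternal in the reverse cross. It draws as well on the cast reads, for which the parents are exchanged. In members its log2 fold change could lie near that of the level between crosses (0.63 against 0.64 in Myo7a) or far from it (0.14 against 0.95 in Ftl1). Of 87 members 1 was called, Spp1, where 1.42% of the 12564 genes tested were called. An unadjusted p under 0.05 was found in 2 members (2.30%) and in 7.31% of all genes tested in this edgeR fit. It was found in 5 members in DESeq2 and in 16 in edgeR with a term for each embryo. The share of all genes in those fits is not given here. The median log2 fold change of paternal over maternal reads was 0.03 over the members and -0.01 over all genes tested. The other members did not pass. The members were chosen on the B6 and cast reads that also enter this contrast, and a gene read mainly from its maternal or mainly from its paternal allele in both crosses could not be a member, so nothing is read from the members' count against that of all genes.

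Spp1 had a positive fold change, toward the paternal allele. Its B6 reads, maternal in the forward cross, were 3362, 1588 and 1450, and 1831, 2949, 8850, 4682 and 3848 in the reverse cross, where B6 is paternal. Its cast reads were 90, 41 and 29 in the forward cross, where cast is paternal, and 1, 0, 15, 0 and 8 in the reverse cross, where cast is maternal. The B6 reads of the crosses overlap, and with B6 reads alone the difference between crosses did not pass (log2 fold change 1.17, adjusted p = 0.580, edgeR). The cast reads do not overlap, and the B6 share was 97.6% ± 0.350 (SD, n = 3) and 99.9% ± 0.0968 (SD, n = 5). The log2 fold change of paternal over maternal reads was 2.05 with a standard error of 0.55 (adjusted p = 0.0879, edgeR).

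In the main fit, which has no term for the embryo, the call of Spp1 was close to the threshold. It was lost in DESeq2 (adjusted p = 0.112) and when forward embryo 1, 2 or 3 or reverse embryo 2, 3, 5 or 7 was left out, with adjusted p up to 0.247, while the log2 fold change stayed between 1.93 and 2.27. Without the filter on low counts it passed (log2 fold change 2.05, adjusted p = 3.74e-08, edgeR). With a term for each embryo, which uses the pair of alleles in an embryo, it also passed (log2 fold change 2.27, adjusted p = 1.05e-08, edgeR). That fit called 3 of 87 members, where 3.1% of all genes were called, the others being Eno1 toward the paternal allele (log2 fold change 0.92, adjusted p = 0.0910, edgeR) and Rpl7 toward the maternal (-0.59, adjusted p = 0.0587, edgeR).

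**Figure D5:**
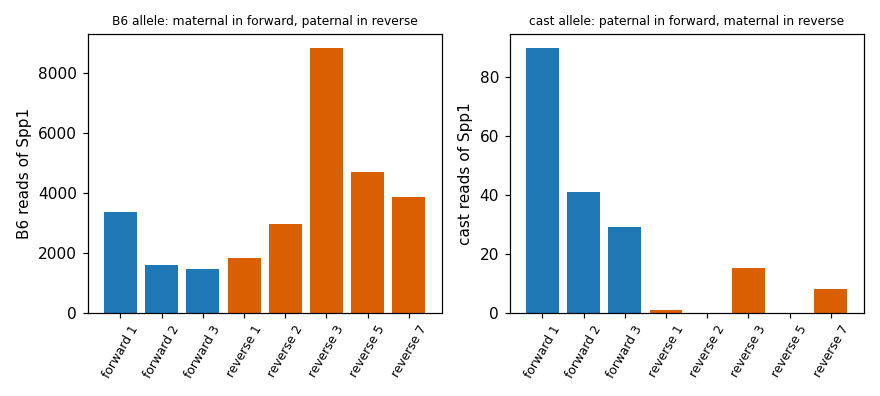
Reads of Spp1 in each embryo (bars), B6 allele on the left and cast allele on the right, with y axes of different range, forward embryos in blue and reverse embryos in orange. The cast reads, paternal in the forward cross, were 29 to 90 there and 0 to 15 in the reverse cross.

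The limits of the rule cut through a continuous range. The members with the lowest share in the lower cross were Rinl at 95.1%, Peli2 at 95.1%, Hmgb1 at 95.1%, Zfp780b at 95.2% and Rpl7a at 95.3%, and just outside lay Rpl26 at 94.97%, Rnf17 at 94.8%, Vdac3 at 94.7%, and Tomm20 and Rps28 at 94.6%. The members with the fewest reads in the lower cross were Peli2 with 102, Cfap99 and Gm33901 with 105, Gm33431 with 107 and 5330411J11Rik with 110, and Msc with 97, Acp1 with 92, Gm33248 with 91 and Sdk2 and Gm10125 with 89 met the share limit but not that on reads. A further 95 genes passed the share limit in a single cross.

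Each embryo had between 1060063 and 1632695 SNP-spanning reads. All 9 trophectoderm, 7 of 8 epiblast and 5 of 5 primitive endoderm markers had at least 10 reads in all, Klf2 having 1. The oocyte list summed to at most 19.0 CPM in any embryo, the cumulus list to 11.3, and the red blood cell list, with 1 gene measured, to 0.943, while the oviduct and uterine list reached 148, mostly from Wfdc2. The leukocyte list reached 669 in forward embryo 1, where Lyz2 had 1055 reads, and Lyz2 had 0 to 43 reads in the other embryos. Its part in the members' levels was not tested.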

How the data were processed

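Single E3.5 blastocysts of both crosses were analysed, 3 forward and 5 reverse. According to the methods, the authors aligned reads to mm10 with STAR, left out multi-mapping reads and counted those over annotated SNPs per gene and strain, with Allelome.Pro as an intermediate step. The deposited values are raw counts without normalization. The submitters' processing notes name STAR 2.5.2b, SAMtools 1.9-92 and bedtools, and the methods name a later STAR release. Samples numbered 4 and 6 were left out by the authors, and the embryos were not matched for sex. Whether strand was used is not given in the sources used here.

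Gene positions came from GENCODE M21, then RefSeq, by symbol (18286 and 2999 matched, and 414 by a synonym, of 22810). A total of 1111 genes without a chromosome were left out. The members, lists and alternatives were chosen with earlier results of these data known. Genes named in the text are the 25 members with the most reads, called members, members near each other, those at the limits of the rule, those with the most cast reads and up to 4 of each group, some of which are not reported here, and any further gene was chosen after its values were seen. CPM (counts scaled to library size) used TMM factors, and the marker lists total reads.

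Tests used edgeR 4.0.16 (limma 3.58.1, R 4.3.3) quasi-likelihood with Benjamini-Hochberg adjustment over all genes tested, at least 10 reads in at least 1 library, and a threshold of 0.1. Levels were fitted on cross, and alleles on strain and parent. DESeq2 1.42.0, other scaling and filters, a term for each embryo and leaving out each embryo were the alternatives. Copies were sought with megablast (blastn 2.17.0), a search added after the members' values were seen. The fits were tested on simulated data. The precision of a count is set by 1060063 to 1632695 reads per embryo, and limits for counts of 0 (3 reads) cover counting error only.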

Additional observations from a re-analysis of the deposited data

Results flagged for a closer look

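Among the 25 members with the most reads, 1 value in the reverse cross stood far from the other embryos of its group. Fbxo4 had 1343 CPM in reverse embryo 1, while the reverse median was 469 and the lowest embryo 320. The gap to the next embryo was 0.771 of the whole range. The limit applied to this ratio, Dixon's 95% critical value, is one that about 1 in 20 groups pass by chance, and 25 genes were examined. Its B6 share in that embryo was in the range of the others, with 2 cast reads beside 2234 B6 reads.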

How the results depend on the processing

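The number of genes read almost only from B6 was 135 with a share limit of 90% and 27 with 99%, and between 60 and 119 with other read limits. It was 96 by the median of embryo shares and 69 to 89 without any 1 embryo. The number read almost only from cast was 7, and it was 11 with at least 50 reads per cross, 17 with 90%, 1 with 99% and 6 to 8 without any 1 embryo. The median share of neighbouring genes stayed between 55.3% and 56.2%.

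Members called between crosses numbered 0 in every alternative except without reverse embryo 1, so the range over left-out embryos was 0 to 2. Over all genes the number called was 9, and 136 in DESeq2, 144 without the filter on low counts, 0 with at least 10 reads in every embryo, 84 with B6 reads alone and 3 to 159 without any 1 embryo. The replicate block over embryos 1 to 3 gave 18 genes and 0 members, and the same-number correlations of deviations were 0.115, 0.000189 and 0.0916. Embryos of different number were not correlated for comparison. Whether the numbers pair embryos of different crosses therefore cannot be told from these values.

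Members called between parental alleles numbered 1, and 0 in DESeq2, 2 without the filter on low counts, which added Gm26760 (log2 fold change -1.69), 3 with the replicate block (a term for each embryo, the alleles of an embryo being a pair), and 0 to 1 without any 1 embryo. Over all genes 178 were called, and 254 in DESeq2, 412 without the filter and 390 with the block. The cause of these changes was not tested. Depth limits the low members most: with 100 reads in a cross, a cast share of a few percent rests on a few reads.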

Other observations

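Another 6 genes met the limits on reads and share but had no chromosome in the annotations used (Gm41354, LOC102636393, LOC102638183, LOC102639762, LOC108167894 and LOC108167978), and Gm41354 and LOC102639762 had the same counts in every embryo.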
